A study of Mus musculus with 36 samples.

Results

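Sox2, Pou5f1 and Nanog encode the core transcription factors of the mouse pluripotent state, and their genomic neighbourhoods are described here through the peaks of CTCF and MBD3 that lie in or near them. A neighbourhood was the gene and the 150 kb on either side of its annotated ends, and every peak that overlapped it was a member. The 3 neighbourhoods held 76, 39, 49 and 53 CTCF peaks on days 0, 2, 4 and 6, of 47414, 28137, 36787 and 38109 CTCF peaks in the lists of these days. They held 24, 4, 15 and 20 MBD3 peaks on the same days, of 10464, 1991, 9006 and 10875.

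Chromatin of mouse embryonic stem cells was sonicated, immunoprecipitated for CTCF or MBD3 and sequenced beside input, in 36 samples that form 12 groups of 3. The groups were CTCF on days 0, 2, 4 and 6, MBD3 on days 0, 2, 4 and 6, and input on the same 4 days. All groups shared a medium with KnockOut Serum Replacement and leukaemia inhibitory factor and a layer of irradiated feeder fibroblasts, and the names of the deposited lists mark the cells as WT, that is wild type. The labels name no agent that sets the groups apart. How the cells were handled between days is not stated in the labels, and nothing in the peak lists checks the cell type, since expression was not measured in these samples.

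CTCF is a zinc finger protein that binds a long DNA motif, halts cohesin and so sets the ends of chromatin loops. MBD3 is part of NuRD, a chromatin complex that moves nucleosomes and removes acetyl groups from histones, and that in embryonic stem cells tempers the expression of pluripotency genes. Sox2 and Oct4, the product of Pou5f1, bind DNA together at many enhancers, and Nanog joins them there. All 3 genes are controlled by nearby and distant enhancers, among which the Sox2 control region far downstream of Sox2 is needed for most of its expression in these cells.

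The 3 genes lie on the plus strand of mm10 (GRCm38.p6): Sox2 (gene ID 20674) at chr3:34649995-34652461, Pou5f1 (18999) at chr17:35506032-35510777 and Nanog (71950) at chr6:122707489-122714633. Their promoters, 250 bases before to 50 bases after the annotated start, are printed from RefSeq. No genome sequence was at hand, so the sequences under the peaks and enhancers were not searched for motifs. No CTCF or MBD3 peak of any day overlapped the promoters, although peaks lay close by. Capitals mark matches to the core of the CTCF motif, CCNNNAGNNGGC, and to ATGCAAA, the beginning of the octamer that Oct4 binds, each searched on both strands.
Sox2 promoter, chr3:34649745-34650044, plus strand: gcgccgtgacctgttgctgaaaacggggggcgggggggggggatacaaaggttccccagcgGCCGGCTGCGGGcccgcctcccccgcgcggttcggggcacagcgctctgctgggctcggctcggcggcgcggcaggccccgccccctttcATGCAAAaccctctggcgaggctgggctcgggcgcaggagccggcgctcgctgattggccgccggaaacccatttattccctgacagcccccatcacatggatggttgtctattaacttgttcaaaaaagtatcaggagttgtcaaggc
Pou5f1 promoter, chr17:35505782-35506081, plus strand: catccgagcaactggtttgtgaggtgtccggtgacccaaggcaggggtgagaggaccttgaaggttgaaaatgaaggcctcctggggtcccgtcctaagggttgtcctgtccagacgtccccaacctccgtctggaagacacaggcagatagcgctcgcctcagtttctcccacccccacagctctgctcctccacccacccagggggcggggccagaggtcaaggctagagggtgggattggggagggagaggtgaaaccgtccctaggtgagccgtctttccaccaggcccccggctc
Nanog promoter, chr6:122707239-122707538, plus strand: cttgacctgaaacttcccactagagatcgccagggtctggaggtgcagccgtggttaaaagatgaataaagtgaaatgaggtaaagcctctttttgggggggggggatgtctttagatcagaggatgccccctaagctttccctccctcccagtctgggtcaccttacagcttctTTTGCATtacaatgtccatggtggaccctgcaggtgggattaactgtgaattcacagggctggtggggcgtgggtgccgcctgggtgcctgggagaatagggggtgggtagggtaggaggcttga
The Sox2 promoter held 27 CpG and 66.3% G and C, with a CTCF core on the opposite strand at bases -189 to -178 and an octamer start at -99 to -93, which do not overlap (the first transcribed base is 0). Pou5f1 held 11 CpG, 62.7% G and C and neither motif. Nanog held 4 CpG, 54.3% G and C and an octamer start on the opposite strand at -75 to -69. Of all 32851 RefSeq promoters of this length, 8.61% held the CTCF core and 4.63% the octamer start. Where a CTCF summit fell inside the promoter the core was present in 31.3%, 44.4%, 41.6% and 40.9% of such promoters on days 0, 2, 4 and 6, against 6.56%, 7.27%, 7.05% and 7.04% of promoters without one. The nearest CTCF peak to the Sox2 promoter ended 1685 bp away. The nearest MBD3 peak lay 388 bp from the Sox2 promoter, 89 bp from the printed one of Pou5f1 and 4364 bp from that of Nanog. Pou5f1 and Nanog each had another RefSeq promoter that is not printed, also without a peak. That of Pou5f1 held 6 CpG and lay 498 bp from the nearest CTCF peak and 2106 bp from the nearest MBD3 peak. For Nanog these distances were 1340 and 4440 bp.

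Each list gives the authors' call on 3 pooled replicates. A peak's fold is the enrichment of fragments over the background expected at its summit, and the whole fragments and the background were recovered from the fold and the p-value of every peak. The background is also given as a multiple of the list's genome-wide level, which was 2.87, 2.67, 1.83 and 1.87 fragments for CTCF and 1.51, 2.18, 1.93 and 1.41 for MBD3 on days 0, 2, 4 and 6. Ranges in brackets are exact 95% Poisson intervals of the fragments over a fixed background and cover counting error only. Because replicates were pooled, no spread between them was available, no difference between days was tested, and days are set side by side as the values of separate lists.

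Pou5f1 and Nanog lay in stretches dense in CTCF, and Sox2 did not. Around Pou5f1 there were 35, 17, 20 and 26 CTCF peaks on days 0, 2, 4 and 6, around Nanog 31, 16, 22 and 20, and around Sox2 10, 6, 7 and 7. The median over 21887 protein-coding genes was 11, 6, 8 and 8. As many CTCF peaks as Pou5f1 had, or more, were found around 0.80%, 3.16%, 4.14% and 0.850% of genes, and for Nanog these shares were 1.96%, 4.33%, 2.33% and 4.95%. For Sox2 they were 54.5% to 62.3%, close to the middle of all genes.

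MBD3 peaks were also most frequent around Pou5f1, with 10, 3, 9 and 12 on days 0, 2, 4 and 6, level with Nanog on day 0. Nanog had 10, 0, 4 and 5 and Sox2 had 4, 1, 2 and 3, where the median gene had 2, 0, 2 and 2. As many MBD3 peaks as Pou5f1 had, or more, lay around 3.34%, 3.33%, 2.45% and 1.12% of genes. Nanog was without any MBD3 peak on day 2, as were 66.1% of genes, and that list was the shortest of the 4. When each day was held to its strongest peaks in equal number, the 3 neighbourhoods together had 47, 39, 40 and 39 CTCF peaks and 10, 4, 7 and 6 MBD3 peaks, and the counts of the 4 days then lay closer together.

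**Figure D1:**
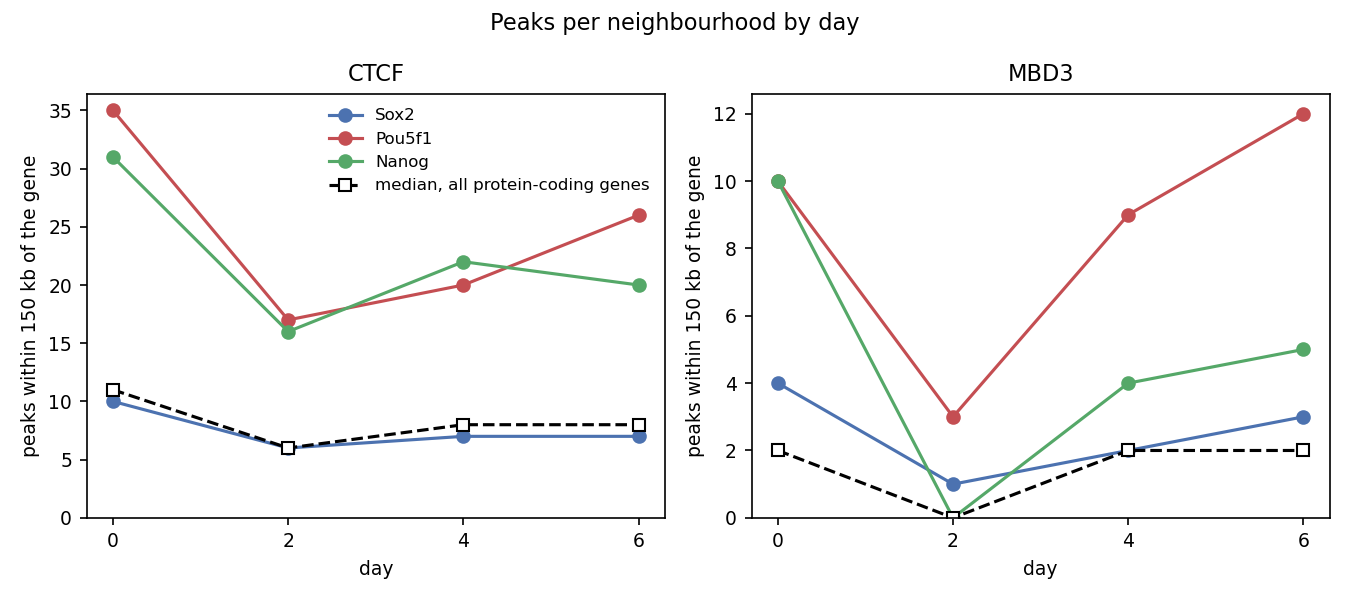
Peaks of CTCF (left) and MBD3 (right) within 150 kb of Sox2, Pou5f1 and Nanog (vertical axis, number of peaks) on days 0, 2, 4 and 6 (horizontal axis), with the median over all protein-coding genes as open squares. Pou5f1 and Nanog lie above the median in CTCF on every day, with 35 and 31 peaks on day 0 against a median of 11, while Sox2 follows it.

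The plot of peaks by distance from the start of each gene shows how differently the 3 neighbourhoods are laid out. Sox2 has a cluster of CTCF sites just upstream and a wide stretch downstream with only weak CTCF peaks before the Sox2 control region. Pou5f1 has strong sites on both sides, and Nanog stands between a strong site upstream and another just past its end.

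**Figure D2:**
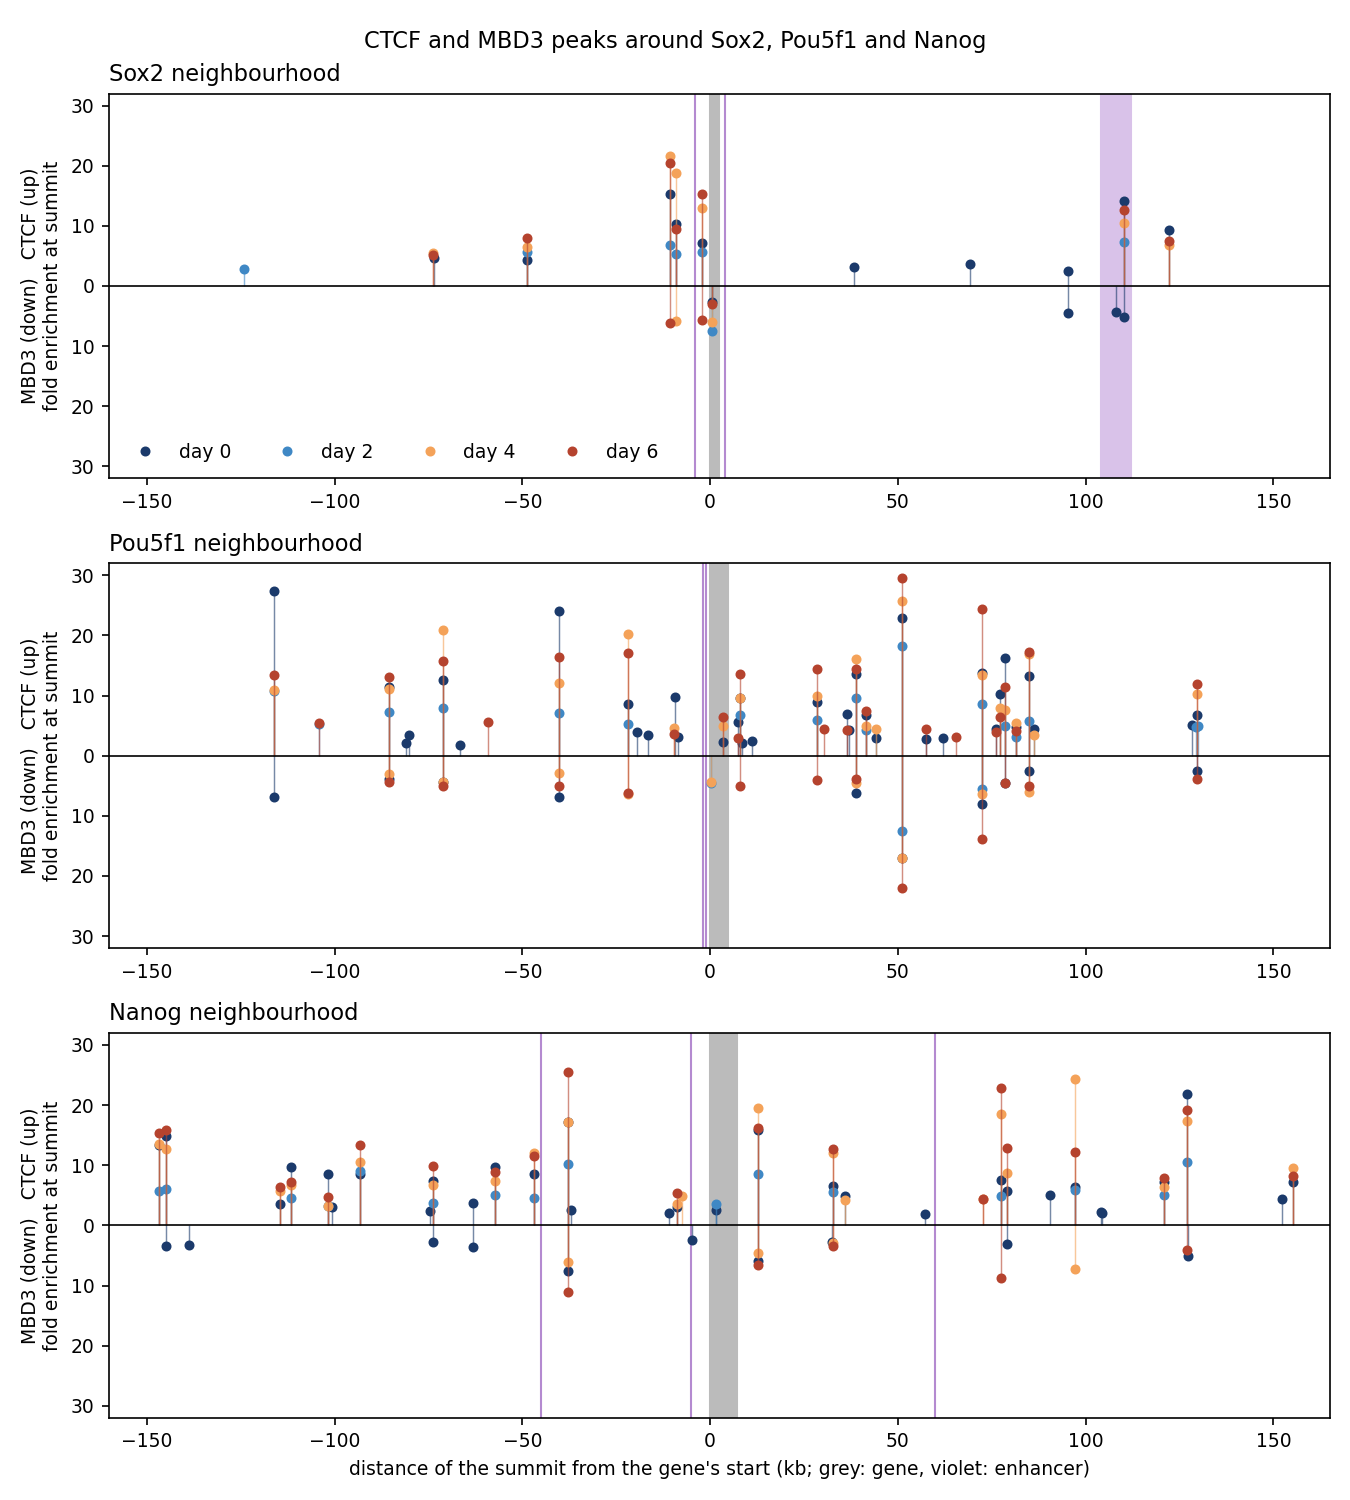
Fold enrichment of CTCF (drawn upwards) and MBD3 (drawn downwards) at each peak summit against its distance from the gene's start in kb, with days 0, 2, 4 and 6 as colours, the gene in grey and the enhancers in violet. Most MBD3 points sit below a CTCF point, and those inside Sox2 and Pou5f1, near 0 kb, do not.

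Sox2 itself carried MBD3 on every day and CTCF on none. The MBD3 summit lay between 567 and 620 bp after the start, inside the single exon that codes for the protein and within the overlapping noncoding gene Sox2ot. Over days 0, 2, 4 and 6 it had folds of 2.65 (2.28 to 3.06), 7.50 (6.17 to 9.04), 6.02 (4.61 to 7.74) and 3.08 (2.12 to 4.33). The intervals of days 2 and 4 did not overlap those of days 0 and 6.

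The fragments behind these folds run otherwise. There were 181, 108, 59 and 31 fragments over the summit on days 0, 2, 4 and 6, against backgrounds of 67.73, 13.53, 8.96 and 9.40 fragments. The day 0 background was 44.85 times the level of its list, a multiple that 1.20% of the peaks of that list reached, and on the other days it was 6.21, 4.64 and 6.67 times. The low fold of day 0 thus stood over the highest number of fragments and the highest background, and the part of that background in the result was not tested. The day 6 peak rested on 31 fragments and a −log10 q of 5.0, and it was lost when a −log10 q of at least 10 was required or the lists were held to equal length. The day 0 peak was lost when peaks with a background over 10 times the level were removed, so that MBD3 on all 4 days did not hold under any of these 3 alternatives, while the peaks of days 2 and 4 remained.

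A peak of MBD3 overlapped 19.2%, 4.40%, 17.8% and 18.6% of all protein-coding genes on days 0, 2, 4 and 6. Those with one on every day numbered 544, or 2.49%. Only 30 genes, 0.137%, had MBD3 on every day and no CTCF peak on any day, and Sox2 was among them with the peaks as called, those of days 0 and 6 included. Sox2 was not alone in lacking CTCF, as 9886 genes had none on any day. These shares are over genes of all lengths and were not matched to the length of Sox2.

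Pou5f1 carried MBD3 on days 2 and 4, with the summit 302 and 307 bp after its start. The folds were 4.48 (3.60 to 5.50) and 4.39 (3.33 to 5.69), from 88 and 55 fragments over backgrounds of 18.88 and 11.76 fragments. These backgrounds were 8.66 and 6.09 times the level of the lists. No MBD3 peak overlapped Pou5f1 on days 0 and 6, and no CTCF peak of any day overlapped the MBD3 summits. With lists of equal length the day 4 peak was lost and that of day 2 remained.

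Unlike Sox2, Pou5f1 also had CTCF within the gene, 3.4 kb after the start, on days 0, 4 and 6. The folds there were 2.3 (1.96 to 2.69), 4.97 (3.72 to 6.50) and 6.37 (4.83 to 8.25). The day 0 peak again had many fragments, 159, over a background of 68.45 fragments that was 23.85 times the level of its list. Only 0.245% of the peaks of that list had a multiple as high, and on days 4 and 6 the multiples were 5.18 and 4.17. The day 0 peak was lost with lists of equal length and without peaks of high background. On day 0 the background was thus high in the MBD3 list at Sox2 and in the CTCF list at Pou5f1. In each gene the other antibody had no peak that day, so its background there is not known.

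**Figure D3:**
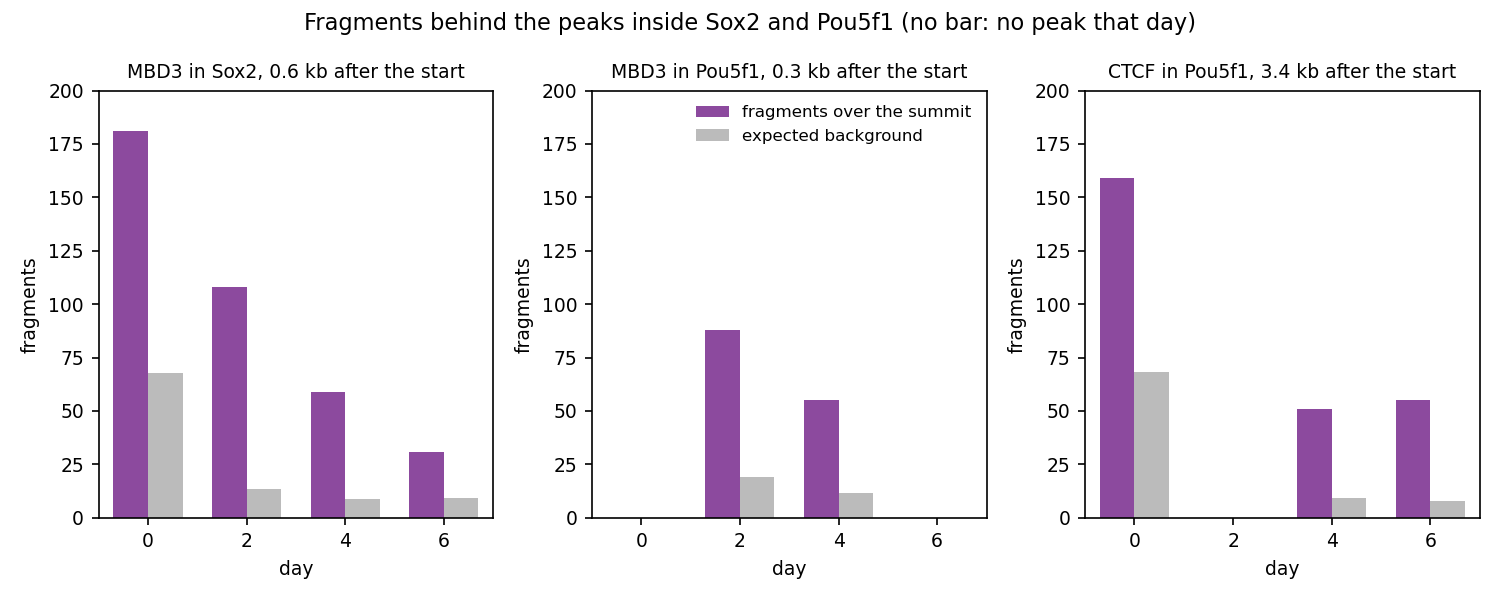
Fragments over the summit (violet bars) and expected background (grey bars), in fragments, on days 0, 2, 4 and 6 for MBD3 in Sox2, MBD3 in Pou5f1 and CTCF in Pou5f1, where a missing pair means no peak. On day 0 both bars are at their highest in Sox2 (181 over 67.73) and in the CTCF panel of Pou5f1 (159 over 68.45).

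Nanog had no MBD3 peak in the gene on any day. It had a weak CTCF peak 1.6 kb after the start on days 0 and 2, with folds of 2.59 (1.78 to 3.67) and 3.62 (2.35 to 5.36) from 30 and 23 fragments, and none on days 4 and 6. The backgrounds at this peak, 3.82 and 2.11 times the level, were not unusual in their lists. Both peaks were lost at a −log10 q of at least 10, and that of day 0 with lists of equal length. A CTCF peak overlapped 52.7%, 35.6%, 41.8% and 42.9% of all protein-coding genes on days 0, 2, 4 and 6. A peak within Pou5f1 or Nanog, or none within Sox2, was thus common among genes of all lengths. Genes as short as these 3 were not looked at apart.

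Peaks of 1 antibody that shared bases over days were merged into a site, and a site with a peak on all 4 days is called constant. Just upstream of Sox2 stood 3 constant CTCF sites, at -10.6, -9.1 and -2.1 kb. The site at -10.6 kb was the strongest, with folds of 15.31, 6.74, 21.53 and 20.37 on days 0, 2, 4 and 6. At -9.1 kb the folds were 10.26, 5.34, 18.82 and 9.55, and at -2.1 kb they were 7.09, 5.60, 12.89 and 15.21. All 3 were lowest on day 2, with intervals apart from those of the highest day. The background at -10.6 kb was 2.31, 3.3, 2.4 and 2.67 times the level on days 0, 2, 4 and 6. It was 4.13, 3.77, 1.86 and 3.89 times at -9.1 kb and 5.94, 3.24, 3.31 and 3.47 times at -2.1 kb. The part of the background in the differences between days was not tested.

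Each of these sites had an MBD3 peak on 1 day. MBD3 was present on day 6 at -10.6 kb with a fold of 6.12 and at -2.1 kb with a fold of 5.73, and on day 4 at -9.1 kb with a fold of 5.89. These MBD3 peaks were lost with lists of equal length and remained at a −log10 q of at least 10. The day with MBD3 was not always that of the highest CTCF fold, since at -10.6 kb CTCF was highest on day 4. SRR1, an enhancer about -4 kb from the start, had the -2.1 kb site as its nearest CTCF peak, 1724 to 1828 bp away. SRR2, the enhancer about 4 kb after the start, had no peak of either antibody within 2 kb on any day.

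Downstream of Sox2 the next CTCF site present on all 4 days lay at 110.1 kb, inside the Sox2 control region (chr3:34753995-34761995, placed from its distance to the gene). Its folds were 14.07 (12.10 to 16.27), 7.36 (6.03 to 8.89), 10.40 (8.52 to 12.59) and 12.65 (10.74 to 14.81) on days 0, 2, 4 and 6. Its background was 4.13, 5.02, 4.97 and 5.97 times the level, and the part of it in these folds was not tested. The interval of day 0 overlapped those of days 4 and 6. The fold was highest on day 0, where the upstream cluster was highest on days 4 and 6. On that day the region also had MBD3, with a fold of 5.14 at the CTCF site and a fold of 4.26 at 108.0 kb, where no CTCF peak stood on any day. MBD3 was found in the control region on no other day. Both of its MBD3 peaks were lost with lists of equal length. At a −log10 q of at least 10 the peak at 108.0 kb was lost and that at the CTCF site remained.

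The nearest constant CTCF sites on either side of Sox2, at -2.1 and 110.1 kb, were thus 111.9 kb apart. In between, CTCF was found at 38.2, 69.3 and 95.4 kb on day 0 alone, with folds of 3.16, 3.65 and 2.52. At the last of these MBD3 was present too on day 0, with a fold of 4.49. The CTCF peak there rested on 13 fragments and a −log10 q of 1.4, near the lowest of its list. For Pou5f1 the nearest constant sites on either side were 29.5 kb apart and for Nanog 50.1 kb, where the median over 21683 genes with such a site on both sides was 141.5 kb. A span as long as that of Sox2 or longer was found for 58.7% of genes, as long as that of Nanog for 84.6% and as long as that of Pou5f1 for 94.2%.

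Upstream of Pou5f1, 5 CTCF sites were present on all 4 days, and the outer ones lie among class I genes of the major histocompatibility complex, the H2-Q genes. The site at -116.0 kb, which overlaps the annotated gene Gm41576, had folds of 27.41, 10.68, 10.94 and 13.48. That at -40.2 kb had folds of 24.10, 7.15, 12.13 and 16.47, and both were highest on day 0. MBD3 was present at -116.1 kb on day 0 alone, with a fold of 6.83. The site at -21.8 kb, the nearest to the gene, was instead highest on day 4, with folds of 8.59, 5.26, 20.18 and 17.06. The background was 5.09, 3.54, 2.43 and 3.2 times the level at -21.8 kb and 5.09, 9.89, 8.28 and 6.25 times at -40.2 kb. At -116.0 kb it was 2.79, 4.39, 5.8 and 4.03 times, and its part in these differences was not tested. MBD3 joined the -40.2 kb site on days 0, 4 and 6 with folds of 6.82, 2.93 and 5.00, and the -21.8 kb site on days 4 and 6 with folds of 6.30 and 6.19.

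At -85.4 kb, within the predicted gene Gm32252, and at -71.0 kb, between H2-Q6 and H2-Q7, CTCF was also present on all 4 days, with folds of 11.42, 7.32, 11.14 and 13.10 and of 12.52, 7.85, 20.92 and 15.77. MBD3 was present at both on days 0, 4 and 6, with folds between 3.11 and 5.03. The backgrounds here were high in every list, from 13.75 to 23.53 times the level for CTCF at -85.4 kb and from 8.28 to 17.49 times at -71.0 kb. The class I genes are close copies of each other, and the part of the background and of shared reads in these peaks was not tested.

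Neither enhancer of Pou5f1 had a CTCF peak. No peak of either antibody lay within 2 kb of the distal enhancer, about -2 kb from the start, which drives Pou5f1 in embryonic stem cells. The MBD3 peak within the gene on days 2 and 4 began 1346 and 1338 bp from the point of the proximal enhancer, about -1.2 kb from the start and known for its use in the epiblast. The nearest CTCF peak upstream was that of day 0 alone at -8.6 kb. Next came a merged site of days 0, 4 and 6 with folds of 9.72, 4.54 and 3.62 from 60, 13 and 11 fragments. Its summit lay at -9.3 kb on day 0 and at -9.6 kb on days 4 and 6.

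Downstream of Pou5f1 lay the site with the highest MBD3 fold of the 3 neighbourhoods on each day, at 51.0 kb within Cdsn, which encodes the skin adhesion protein corneodesmosin. CTCF had folds of 22.87 (20.09 to 25.94), 18.16 (15.75 to 20.83), 25.70 (21.91 to 29.96) and 29.54 (25.42 to 34.13) on days 0, 2, 4 and 6. MBD3 was present on all 4 days with folds of 17.07 (13.95 to 20.68), 12.46 (10.32 to 14.93), 17.05 (14.19 to 20.32) and 22.01 (18.14 to 26.47). For both antibodies day 6 was highest and day 2 lowest, and on day 0 the CTCF fold was below those at -116.0 and -40.2 kb. The backgrounds were at most 3.85 times the level.

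A second joint site stood at 72.4 kb between genes. Its CTCF folds were 13.79, 8.58, 13.34 and 24.45, and its MBD3 folds were 8.06, 5.54, 6.35 and 13.88, on days 0, 2, 4 and 6. In both antibodies the interval of day 6 stood above those of the other days, and day 2 was lowest. These 2 sites and the one inside Sox2 were the only MBD3 sites of the 3 neighbourhoods present on all 4 days, of 33. Closer to Pou5f1, within Tcf19, CTCF was present on all 4 days at 8.1 kb with folds of 9.55, 6.84, 9.51 and 13.53, with MBD3 on day 6 alone at a fold of 5.04.

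The remaining constant CTCF sites downstream of Pou5f1 were at 28.5, 38.8, 41.6, 78.5, 81.5, 85.0 and 129.8 kb. The ones at 41.6 and 81.5 kb were the weakest, with folds of at most 7.42, and had no MBD3 on any day. The others had MBD3 on 1 to 3 days, day 6 always among them, with folds between 2.53 and 6.13. On day 0 the MBD3 peaks at 85.0 and 129.8 kb had a −log10 q of 1.6 and 2.3.

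For Nanog the site at -37.9 kb was the strongest on day 6, with CTCF folds of 17.18 (15.80 to 18.66), 10.13 (9.11 to 11.23), 17.13 (15.49 to 18.89) and 25.55 (23.31 to 27.95). MBD3 was present there on days 0, 4 and 6 with folds of 7.59 (6.38 to 8.97), 6.16 (5.22 to 7.22) and 11.13 (9.47 to 13.00). In both antibodies the interval of day 6 stood above those of the other days. The CTCF background was 9.45 to 12.87 times the level over the 4 days, and its part in the result was not tested.

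On the other side of Nanog, CTCF was present on all 4 days at 12.7 kb, with folds of 15.82, 8.49, 19.52 and 16.22. MBD3 was present there on days 0, 4 and 6 with folds of 5.88, 4.57 and 6.54. Further on lies Slc2a3, the gene of the glucose transporter GLUT3, with a constant site at 32.7 kb whose CTCF folds were 6.47, 5.49, 12.11 and 12.69 and whose MBD3 folds were 2.84, 2.95 and 3.49 on days 0, 4 and 6.

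The sites at 77.6 and 97.1 kb from Nanog differed most between days among the constant sites. At 77.6 kb the CTCF folds were 7.57, 4.89, 18.56 and 22.88, and MBD3 was present on day 6 alone with a fold of 8.67. At 97.1 kb they were 6.31, 5.84, 24.29 and 12.28, and MBD3 was present on day 4 alone with a fold of 7.22. At both, the only day with MBD3 was the day of the highest CTCF fold. The background differed between days too, with 5.41, 3.45, 1.72 and 1.92 times the level at 77.6 kb and 7.0, 3.92, 1.70 and 4.17 times at 97.1 kb, and its part in these differences was not tested.

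The other constant CTCF sites of Nanog and Sox2 were weaker or further away. Upstream of Nanog they included those at -111.7, -93.3, -73.9 and -57.4 kb, with folds of at most 13.40, and of these the one at -73.9 kb had MBD3, on day 0 with a fold of 2.73. The −log10 q of that MBD3 peak was 2.0. Downstream the site at 120.8 kb, within the forkhead gene Foxj2, had folds of 7.14, 5.12, 6.34 and 7.82 and no MBD3. The site at -48.7 kb from Sox2, within Sox2ot, had folds of 4.34, 5.64, 6.45 and 8.04 and no MBD3 either.

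Among sites missing on some day, the highest folds were 9.28 at 122.2 kb from Sox2, 10.19 at 77.1 kb from Pou5f1 and 12.95 at 79.0 kb from Nanog, all absent on day 2. Within 10 kb of the ends of the genes, CTCF was also seen at 7.4 kb from Pou5f1 on days 0 and 6 with folds of 5.63 and 3.02, and at 8.6 and 11.1 kb on day 0 with folds of 2.08 and 2.50. Near Nanog it was seen at -8.9 kb on days 0, 4 and 6 with folds of 2.98, 3.50 and 5.41, and at -7.6 kb on day 4 with a fold of 4.86. No MBD3 peak lay at these 5 sites within 10 kb of a gene. At -63.0 kb from Nanog a CTCF peak of day 0 alone, with a fold of 3.77, had MBD3 with a fold of 3.61.

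Of the enhancers of Nanog, the one about -5 kb from the start had an MBD3 peak 105 bp away on day 0, at -4.8 kb, with a fold of 2.48 (1.59 to 3.70) and no CTCF peak on any day. The −log10 q of this MBD3 peak was 1.8. The enhancer about -45 kb from the start had a constant CTCF site 1661 to 1690 bp away, at -46.8 kb, with folds of 8.51, 4.60, 12.06 and 11.61 and no MBD3. The enhancer about 60 kb after the start had no peak within 2 kb, and the nearest was a CTCF peak of day 0, 2558 bp away with a fold of 1.92. Over the 8 enhancers of the 3 genes, placed from published distances, the Sox2 control region was the only one with a CTCF peak inside its bounds, and the others are points to which a distance of 2 kb was allowed.

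MBD3 peaks of the neighbourhoods mostly lay inside a CTCF peak of the same day, as they did in the whole lists. They numbered 20 of 24, 2 of 4, 13 of 15 and 19 of 20 over days 0, 2, 4 and 6. As shares these were 83.3% (exact 95% interval 62.6 to 95.3), 50% (6.76 to 93.2), 86.7% (59.5 to 98.3) and 95% (75.1 to 99.9), beside 88.9%, 53.7%, 84.3% and 91.8% of all MBD3 peaks. Every interval held the value of the whole list. The intervals take peaks of the same neighbourhood as independent, and that of day 2, from 4 peaks, could exclude little. On day 0 all 10 MBD3 peaks around Pou5f1 were inside CTCF peaks, and on day 6 all 12 were.

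The places of the remaining 9 MBD3 peaks are given without a share to compare. Where MBD3 peaks outside CTCF lay in the whole lists was not counted. Of these, 6 were within Sox2 or Pou5f1 themselves, 2 were at the Sox2 control region and the -5 kb enhancer of Nanog, and 1 was elsewhere, at -138.6 kb from Nanog with a fold of 3.21. The peak at -138.6 kb rested on 9 fragments and a −log10 q of 1.4. None of the 9 overlapped a CTCF peak of any day. The distance from their summit to the nearest CTCF summit of the day was 2096 to 7747 bp. The 9 peaks stand at 5 places, since those within a gene repeat the same place over several days.

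**Figure D4:**
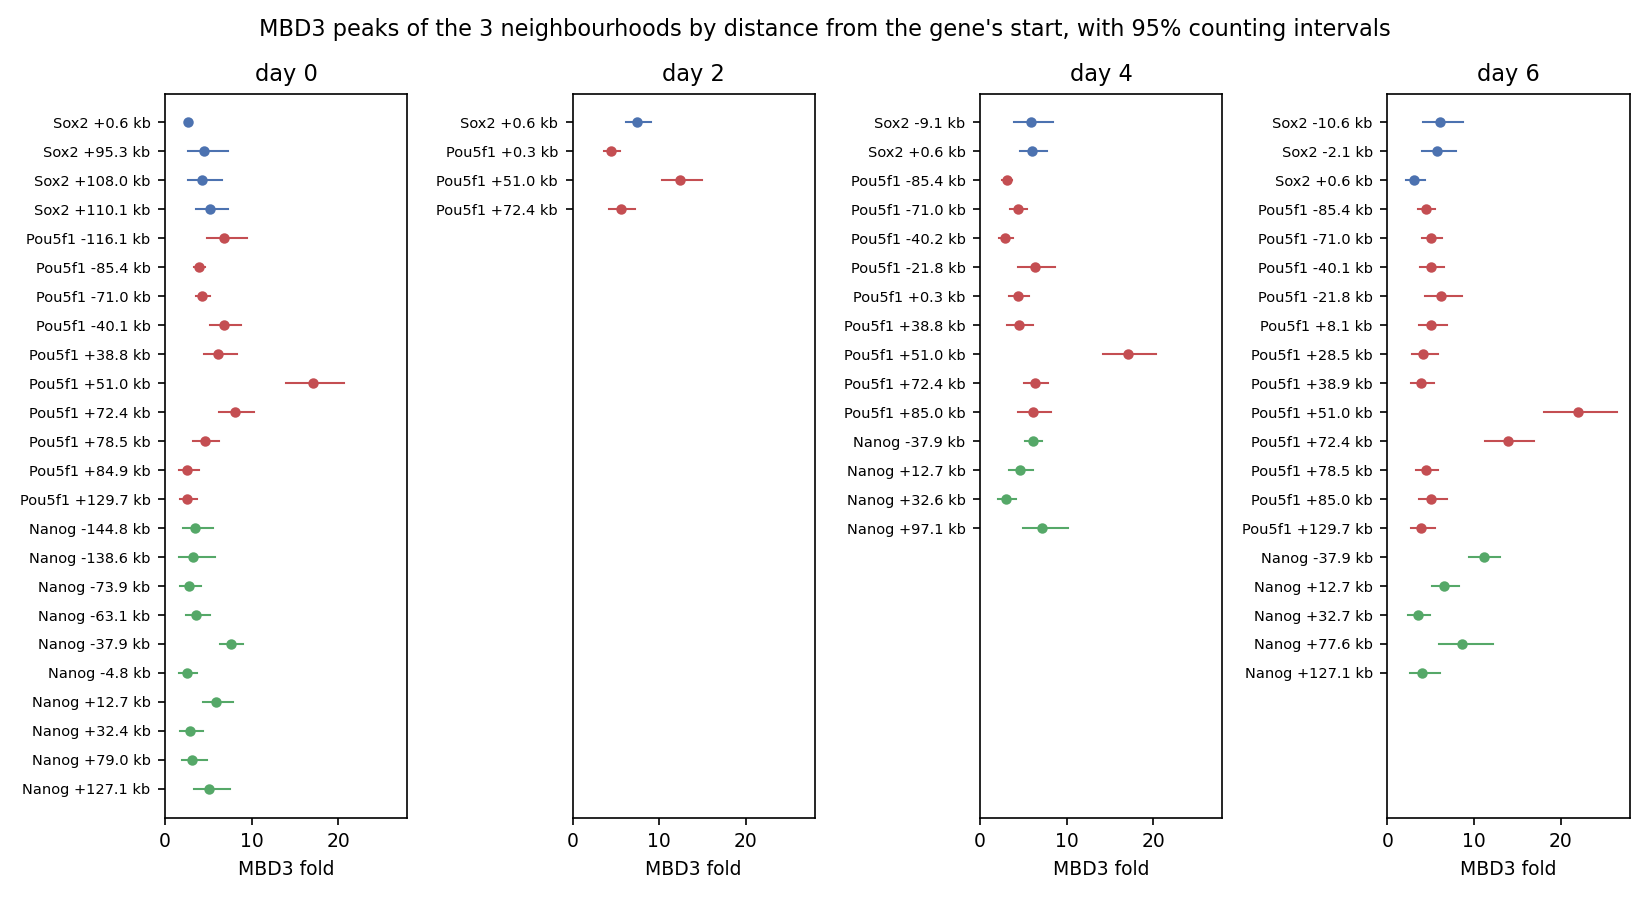
Fold enrichment (horizontal axis) of every MBD3 peak of the 3 neighbourhoods with its exact 95% counting interval, by distance of its summit from the gene's start (rows) and by day (panels), coloured by gene. The Pou5f1 site at 51.0 kb stands above the other peaks on each day, and the peak inside Sox2 is highest on day 2.

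Merged over days, the neighbourhoods held 83 CTCF sites, 11 around Sox2, 39 around Pou5f1 and 33 around Nanog. Of these, 35 or 42.2% were present on all 4 days, where the share over all CTCF sites of the series was 47.3%. Sox2 had 5 of them and Pou5f1 and Nanog 15 each. Another 24 were seen on day 0 alone, 28.9% against 20.6% in the series, and 22 of these had folds under 5. A further 9 were missing on day 2 only, the day with the shortest CTCF list. Series shares for the low folds and for absence on day 2 only were not counted.

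Few MBD3 sites were constant. Of the 33 sites, 3 or 9.09% had a peak on all 4 days, beside 4.90% in the series, and 10 or 30.3% had one on day 0 alone, beside 20.1%. Another 8 were missing on day 2 only, 5 around Pou5f1 and 3 around Nanog. Day 2 had the shortest MBD3 list, and the share of such sites in the series was not counted. Of the 35 constant CTCF sites, 25 or 71.4% had an MBD3 peak on some day, where the share in the series was 55.1%. Of the 48 CTCF sites seen on fewer days, 3 or 6.25% had one, beside 6.09% in the series.

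The constant CTCF sites had their lowest fold on day 2 at 33 of 35, and the exceptions were Sox2 at -48.7 kb and Nanog at -93.3 kb, which were lowest on day 0. In the series 84.4% of constant sites were lowest on day 2. The highest fold fell on day 6 at 18 sites, on day 4 at 9 and on day 0 at 8, where the shares in the series were 40.5%, 28.7% and 30.1%. The median fold was 9.73, 5.84, 12.11 and 13.48 on days 0, 2, 4 and 6, beside 9.87, 5.66, 10.37 and 11.15 in the series. The medians of the days thus stood in the same order as at the constant sites of the series. For the day of the highest fold, day 6 led in both, while day 0 came before day 4 in the series. At 32 of 35 sites the counting intervals of at least 1 pair of days did not overlap, as at 83.7% of constant sites in the series.

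Constant CTCF sites with MBD3 had higher median CTCF folds than those without. The 25 sites with MBD3 on some day had median CTCF folds of 13.29, 6.74, 13.34 and 15.21, against 8.52, 4.79, 6.56 and 7.93 at the 10 sites without it. The ranges overlapped on every day, from 9.55 to 29.54 with MBD3 and from 4.15 to 15.35 without on day 6. These medians describe called peaks alone, and no test was made of the difference.

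**Figure D5:**
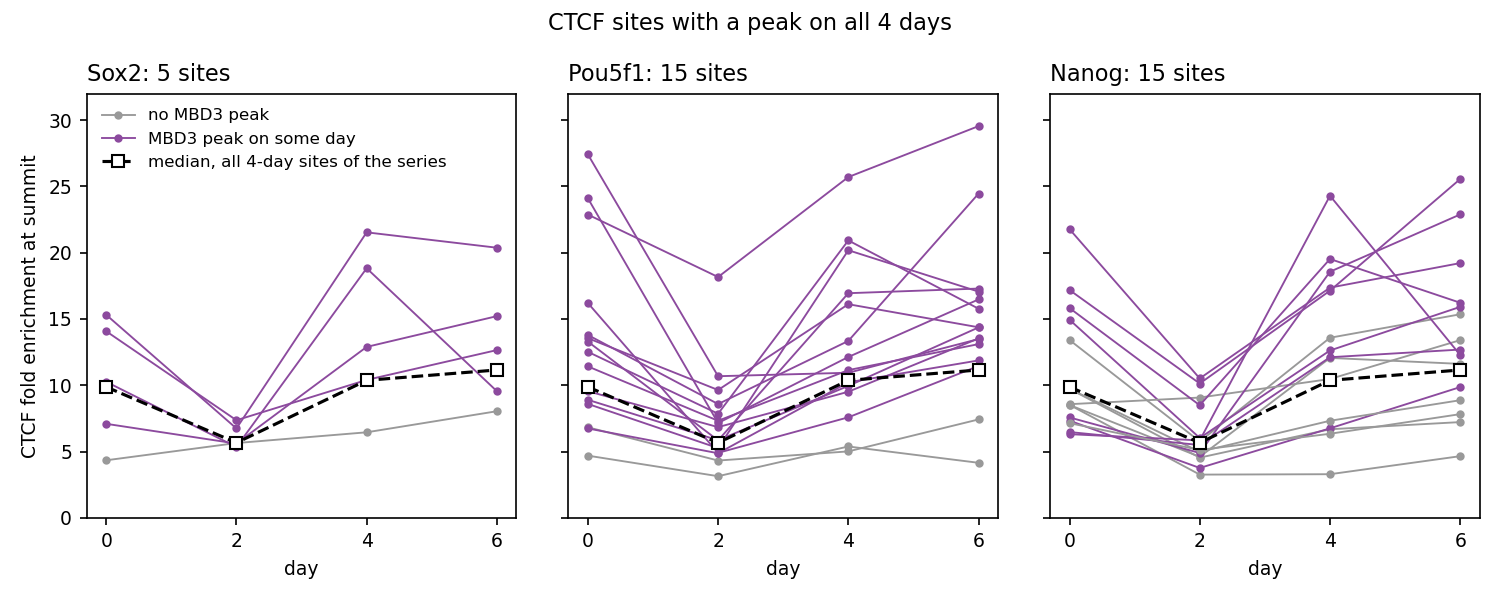
CTCF fold enrichment (vertical axis) on days 0, 2, 4 and 6 (horizontal axis) at each CTCF site present on all 4 days, 1 panel per neighbourhood, in violet where MBD3 had a peak on some day and in grey where it had none, with the median of all such sites of the series as open squares. At 33 of the 35 sites the lowest point is on day 2, and the grey lines lie mostly below the violet ones.

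Beside the 3 genes, 28 other genes, listed by symbol as genes of the pluripotency network, were looked at in the same way. The Tcf3 among them, on chromosome 10, is not the network factor that formerly had this name. It is counted in the shares below, with CTCF on days 0 and 6 and MBD3 on day 4. Of these, 20, 13, 13 and 15 were overlapped by a CTCF peak on days 0, 2, 4 and 6, or 71.4%, 46.4%, 46.4% and 53.6%, beside 52.7%, 35.6%, 41.8% and 42.9% of all protein-coding genes. An MBD3 peak overlapped 4, 1, 9 and 2 of them, or 14.3%, 3.57%, 32.1% and 7.14%, beside 19.2%, 4.40%, 17.8% and 18.6%. The genes were not matched by length in these shares. MBD3 on every day, as in Sox2, was found among the 28 at Stat3 alone, a gene of 52789 bp. Stat3 encodes the transcription factor that carries the signal of leukaemia inhibitory factor, and its MBD3 folds were 7.17, 5.24, 5.09 and 8.71. Unlike Sox2, Stat3 also had a CTCF peak in the gene on all 4 days, with folds of 12.70, 8.62, 12.55 and 19.70. Esrrb, an orphan nuclear receptor gene activated by Nanog, had MBD3 on days 0 and 4, with highest folds of 3.33 and 4.00. Fbxo15, a target gene of Oct4 and Sox2, had MBD3 on days 0, 4 and 6, with folds of 4.36, 3.19 and 3.88, and the other 7 genes so marked had it on 1 day each.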

How the data were processed

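Chromatin immunoprecipitated for CTCF or MBD3 and input chromatin were sequenced in 3 samples per antibody and day. Per the labels' protocols, the paired-end libraries were amplified by PCR, so fragments are not independent molecules. The tools were MACS2 2.1.2, Bowtie2 2.3.4 and bedtools 2.25.0, beside SAMtools 1.9 and FastQC 0.11.7, and the build was mm10, per the submitters' processing notes. The authors deposited 8 peak lists, 1 per antibody and day, with the 3 replicates pooled, which give each peak's fold enrichment at the summit (a ratio) and its −log10 p and −log10 q, with a lowest −log10 q of 1.30 to 1.31. The labels do not say whether the samples of a group came from separate cultures, and the total reads per sample are not used here, so depth is seen only through the background level of each list.

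Rows with the same interval were counted as 1 peak with the summit of highest −log10 q, on chromosomes 1 to 19, X and Y. Peaks of 1 antibody that shared at least 1 base over days were merged into a site. A peak within a gene, or an MBD3 peak inside a CTCF peak, shared at least 1 base with it. Fragments and background were recovered from fold and p-value within 0.1% of the −log10 p, for 100% of peaks. The level of a list is its lowest background shared by at least 0.5% of its peaks. The method was tested on simulated data. Gene ends, names and promoters came from RefSeq tables of GRCm38.p6, the assembly of mm10, which matched all 3 genes by symbol. Enhancers were placed by their published distance from the gene's start, as points with a tolerance of 2 kb or, for the Sox2 control region, as a stretch.

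The sites named were those with MBD3, those within 10 kb of a gene or at an enhancer, the CTCF sites present on all 4 days and the strongest of the others, with the genes they overlap. A result at 1 further gene is not reported here. Network genes with MBD3 on 2 or more days were named after their values were seen. The members, the network list and the comparisons were chosen with earlier results of these data known. No test was made between days or groups. The alternatives were a stricter −log10 q, lists of equal length, summits in place of intervals, a window of 50 kb, other rules of overlap, and, chosen after seeing the data, the removal of peaks with a background over 10 times the level. The analysis used Python 3.11.15, pandas 2.3.3, scipy 1.17.1 and bedtools 2.31.1.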

Additional observations from a re-analysis of the deposited data

How the results depend on the processing

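Summits in place of intervals, counting every summit, and the other rules of overlap left each count within 1.5 times its value, as did the removal of peaks with a background over 10 times the level, which was chosen after seeing the data and left 31 of 35 constant CTCF sites and 2 of 3 constant MBD3 sites, the one inside Sox2 being lost. With a −log10 q of at least 10, MBD3 peaks on day 0 numbered 12 instead of 24, and 11 instead of 20 lay inside CTCF peaks. With lists of equal length, CTCF peaks on day 0 numbered 47 instead of 76. MBD3 peaks then numbered 10, 7 and 6 on days 0, 4 and 6 instead of 24, 15 and 20, and 9, 6 and 6 of them lay inside CTCF peaks instead of 20, 13 and 19. A window of 50 kb, smaller by construction, held 32, 16, 21 and 21 CTCF peaks on days 0, 2, 4 and 6, 15 constant CTCF sites, and 8 and 12 MBD3 peaks on days 0 and 6. In it 6, 1, 8 and 11 MBD3 peaks lay inside CTCF peaks on days 0, 2, 4 and 6.

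No paired analysis was possible because each list pools replicates 1 to 3, and leaving out a replicate was not possible either. The enhancer positions are approximate.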

Other observations

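The neighbourhood of Nanog holds other genes of the early embryo and germ line. Gdf3, which encodes a ligand of the TGF-beta family, had a constant CTCF site at -101.8 kb from Nanog with folds of 8.52, 3.26, 3.29 and 4.65 on days 0, 2, 4 and 6, highest on day 0, and no MBD3 peak. Dppa3, which encodes the maternal factor Stella, was overlapped by no peak of either antibody on any day.

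Slc2a3 was overlapped by 7 CTCF sites, of which those at 32.7 and 77.6 kb from Nanog were constant. At 79.0 kb CTCF was absent on day 2 and had folds of 5.80, 8.65 and 12.95 on days 0, 4 and 6. These came from 63, 35 and 56 fragments over backgrounds of 10.04, 3.16 and 3.4 fragments, and the part of the background was not tested. MBD3 was found on day 0 at 79.0 kb with a fold of 3.14 and on day 6 at 77.6 kb with a fold of 8.67. Foxj2, a forkhead gene, had a constant CTCF site at 127.1 kb with folds of 21.77, 10.51, 17.36 and 19.21, and MBD3 on days 0 and 6 with folds of 5.10 and 4.03.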
